A study of Homo sapiens with 4 samples.

Results

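Bidirectional promoters are stretches of DNA from which a pair of genes is transcribed in opposite directions, each gene pointing away from the other. The pairs described here are protein-coding genes of the autosomes, on opposite strands, whose starts lie no more than 1 kb apart in GENCODE release 44 on the hg19 build. The rule found 859 such pairs, formed by 1656 genes, among 19229 autosomal protein-coding starts. The region of a pair runs from 5 kb before the leftmost of its starts to 5 kb after the rightmost. In 857 pairs, at least 50% of that region had a value in both replicates. AGAP8/TIMM23B and BOLA2/SLX1B, with 14.6% and 3.68% of their bases assayed, were not measured. Some pairs are not separate, since 61 genes took part in more than 1 pair and 123 pairs lay in 60 merged regions of overlapping pairs. A read-through gene model was part of 78 pairs, and a gene without a symbol part of 63.

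The study mapped macroH2A1 by ChIP-seq, in which crosslinked chromatin is precipitated with an antibody and its DNA sequenced, in IMR90, a line of primary human lung fibroblasts grown in serum-containing medium. It holds 1 group of 2 biological ChIP replicates, untreated as far as the labels say, and 2 input samples of unprecipitated chromatin that served as the authors' denominator. All samples come from 1 cell line, ChIP measures no RNA, and the fibroblast label could therefore not be set against marker gene expression. The deposited files divide the genome into segments, each with the log2 of its ChIP to input ratio. The read depth behind a ratio is unknown, and each value below is therefore given in replicate 1 and then replicate 2, or as mean ± SD over both. With 1 group of 2 samples no test between samples exists, so differences are set against the spread between the replicates.

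Bidirectional promoters are common in the human genome. They usually lie in CpG islands, lack a TATA box, and often join genes that most cells use, such as genes of DNA repair, mitochondria and RNA processing. MacroH2A1 is a variant of histone H2A with a large globular macrodomain at its tail. It is known from the inactive X chromosome and from broad domains of silent autosomal chromatin, and is usually scarce at the starts of active genes.

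The DNA between the 2 starts, as the reference genome gives it on the plus strand, is shown for 5 pairs with macroH2A1 over their promoters and for 7 pairs with low ratios. Capitals mark matches to short motifs, or to their reverse complements, since both strands were searched. The motifs were CCAAT, the GC box with the letters GGGCGG, the ETS site with CCGGAAG, the YY1 site with AAGATGGC and the TATA box with TATAAA. No motif contains another, but matches can share bases at their ends. Each stretch lies outside both genes in the annotation used. The first 5 are the stretches between genes that lay in macroH2A1-covered regions.
RASL12/KBTBD13, chr15:65369029-65369083: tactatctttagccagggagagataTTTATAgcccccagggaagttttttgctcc
SNCB/EIF4E1B, chr5:176057558-176057618: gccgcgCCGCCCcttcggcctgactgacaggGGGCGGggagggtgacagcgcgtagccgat
HES2/ESPN, chr1:6484731-6484835: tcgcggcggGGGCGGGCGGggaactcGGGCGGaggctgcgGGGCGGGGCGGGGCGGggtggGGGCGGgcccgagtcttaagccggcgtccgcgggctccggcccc
FUT1/FGF21, chr19:49258648-49258780: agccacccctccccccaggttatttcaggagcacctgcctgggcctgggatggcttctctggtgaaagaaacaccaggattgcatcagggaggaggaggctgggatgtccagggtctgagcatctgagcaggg
COL4A4/COL4A3, chr2:228029170-228029339: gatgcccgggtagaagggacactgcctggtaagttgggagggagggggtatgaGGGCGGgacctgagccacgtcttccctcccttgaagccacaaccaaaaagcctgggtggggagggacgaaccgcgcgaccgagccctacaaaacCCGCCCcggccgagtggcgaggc
The next 7 are from pairs with log2 ratios well below 0, of which the first 3 are textbook examples of bidirectional promoters and the other 4 are among the 10 lowest pairs.
SARS2/MRPS12, chr19:39421404-39421583: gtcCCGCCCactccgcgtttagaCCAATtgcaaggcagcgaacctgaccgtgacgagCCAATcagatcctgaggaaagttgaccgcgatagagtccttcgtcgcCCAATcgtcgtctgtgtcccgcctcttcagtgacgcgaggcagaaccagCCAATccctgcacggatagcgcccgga
PPAT/PAICS, chr4:57301782-57301906: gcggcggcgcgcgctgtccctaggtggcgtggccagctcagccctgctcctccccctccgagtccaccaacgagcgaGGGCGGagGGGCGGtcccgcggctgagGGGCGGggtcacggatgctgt
OSGEP/APEX1, chr14:20923249-20923349: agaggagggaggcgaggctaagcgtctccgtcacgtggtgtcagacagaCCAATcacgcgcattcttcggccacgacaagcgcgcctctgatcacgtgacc
ALKBH1/SLIRP, chr14:78174367-78174413: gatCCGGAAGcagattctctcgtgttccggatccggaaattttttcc
TADA3/ARPC4-TTLL3, chr3:9834696-9834765: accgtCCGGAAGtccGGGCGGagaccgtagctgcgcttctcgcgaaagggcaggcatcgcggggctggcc
CBX5/HNRNPA1, chr12:54673918-54673976: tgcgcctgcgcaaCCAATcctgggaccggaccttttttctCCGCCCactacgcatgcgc
RNF166/CTU2, chr16:88772817-88772890: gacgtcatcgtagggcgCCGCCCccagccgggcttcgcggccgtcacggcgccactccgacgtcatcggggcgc
The covered stretches of RASL12/KBTBD13 and FUT1/FGF21 hold 0 CpG dinucleotides, while that of HES2/ESPN holds 18 CpGs and 7 GC boxes. The 7 stretches with low ratios hold between 4 CpGs, in ALKBH1/SLIRP, and 18, in SARS2/MRPS12. CpG-rich stretches thus appear in both sets.

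MacroH2A1 was low over most bidirectional promoters. The median log2 ratio over the 857 pairs was −1.70 in replicate 1 and −1.66 in replicate 2 (−1.68 ± 0.03, SD, n = 2). Over 17184 single starts, meaning autosomal coding starts in no pair, the medians were −0.61 and −0.56 (−0.58 ± 0.04). The pairs lay below the single starts by more than 1 log2 unit in both replicates, many times the spread between replicates. Against only those single starts with another coding start 1 to 10 kb away, the difference was −0.72 in place of −1.10. The interquartile range was −2.14 to −1.07 in replicate 1 and −2.11 to −0.96 in replicate 2, so 3 in 4 pairs lay below the median single start.

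The same held for counts of pairs past fixed limits. In 779 pairs (90.9%) the log2 ratio was below 0 in both replicates, against 67.1% of the 18836 measured coding start windows. A pair was called low where both replicates were at −1 or below, which 595 pairs (69.4%) met, against 31.8% of all start windows. With a limit of −2 the share of pairs was 21.5%. A pair was called covered where at least 50% of its assayed bases lay, in both replicates, in enriched segments, meaning a log2 ratio above 0 with a −log10 p of at least 2. Only 46 pairs (5.37%) were covered, against 19.9% of all start windows and 21.2% of single starts. The remaining 216 pairs (25.2%) were neither covered nor low. In 734 pairs no base was covered in both replicates at once, in 667 (77.8%) no base was covered in either replicate, and 38 pairs were covered throughout in both. Of the 18836 start windows, 11467 had no base covered in both at once, and 2979 were covered throughout in both. The count for either replicate was made for pairs only.

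**Figure D1:**
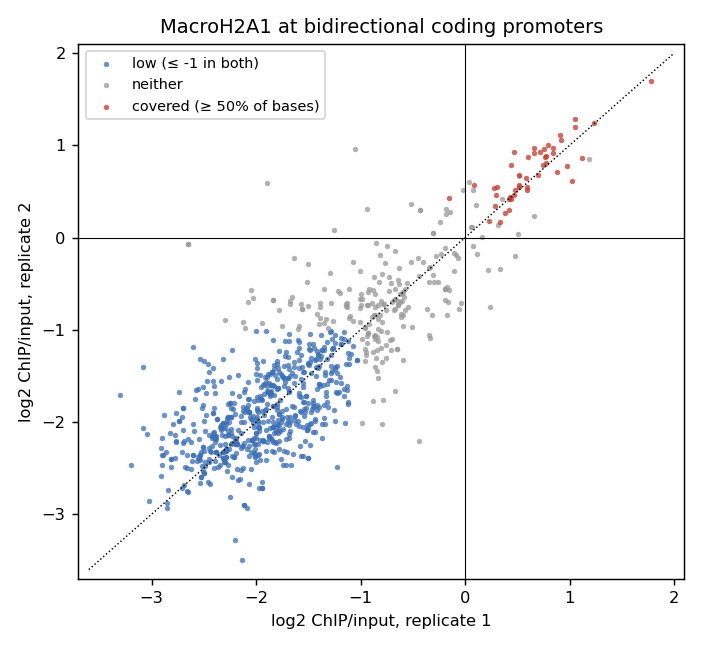
Mean log2 ratio of ChIP over input in each of the 857 pair regions, replicate 1 on the horizontal axis and replicate 2 on the vertical axis, with 1 point per pair and covered and low pairs in their own colours. Most points lie in the lower left, around the medians of −1.70 and −1.66, and the 46 covered pairs form a sparse group at the upper right.

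The plot of replicate 1 against replicate 2 shows how closely pairs repeated. Across the 857 pairs Pearson's r was 0.85 and Spearman's rho 0.79. These are descriptions only, since pairs that lie close together share segments and both ratios come from the same cell line. The median absolute difference between replicates was 0.26, and 95% of pairs differed by less than 0.96. The sign differed between replicates in 21 pairs.

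A few pairs repeated poorly, and their values are read with that spread. PSMA2/MRPL32, which joins a proteasome subunit and a mitochondrial ribosomal protein, read −2.65 and −0.07. NKAIN4/ARFGAP1 read −1.90 and 0.59, and YIPF5/KCTD16 read −1.06 and 0.96. VPS35/ORC6, a retromer subunit beside a subunit of the origin recognition complex, read −0.44 and −2.21. None of these pairs was called covered or low.

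The values are means over long segments. The segment at the centre of a pair was 49.7 kb long in replicate 1 and 82.0 kb in replicate 2, as medians, and 58.3% and 74.3% of the pair regions lay in a single segment, where coverage can only be all or none. The 857 centres fell in 769 and 748 distinct segments. A nucleosome-free gap at the promoter itself, or a short peak there, cannot be seen at this resolution.

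The depletion was deepest around the promoters and faded outwards. Relative to flanks 50 to 100 kb away on both sides, the pair region was lower by a median of 0.81 log2 units (−0.83 and −0.79, mean −0.81 ± 0.03), and it was lower in both replicates at 614 of 840 pairs (73.1%). The median difference was −0.07 against flanks at 5 to 20 kb, −0.48 at 20 to 50 kb and −0.98 at 100 to 200 kb. For single starts the median difference at 50 to 100 kb was −0.01, and 44.7% of 16821 were lower than their flanks in both replicates. The 46 covered pairs, chosen for high values at the centre, were 0.91 above their flanks at 50 to 100 kb.

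**Figure D2:**
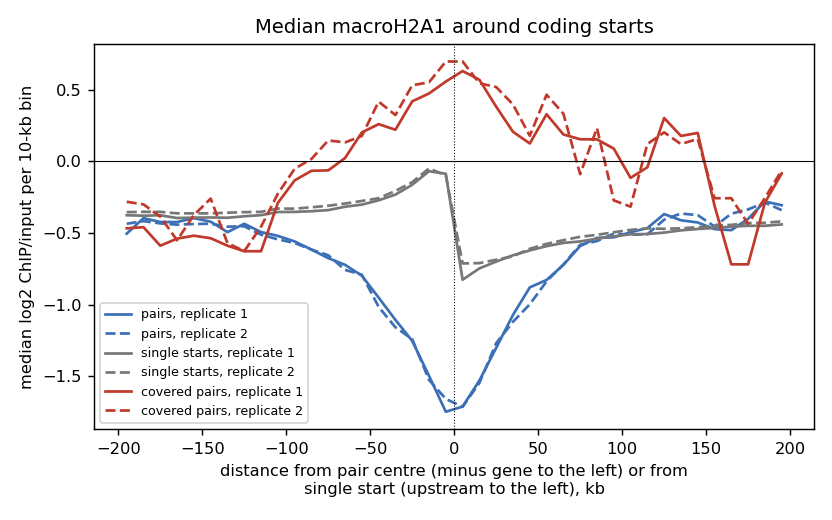
Median log2 ratio of ChIP over input by distance from the centre of the pair or from the start, in kb, for all pairs, single starts and covered pairs, with a solid line for replicate 1 and a dashed line for replicate 2. The line for all pairs is lowest at the centre and rises on both sides, while the covered pairs, selected on their central values, peak there.

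The shape differed from that of single starts in which side was low. Upstream of single starts, over 0 to 5 kb, the median was −0.18 ± 0.01, and downstream, inside the gene, it was −0.77 ± 0.09. In a bidirectional pair both sides are downstream, and the medians were −1.78 ± 0.03 on the side of the minus-strand gene and −1.76 ± 0.02 on the side of the plus-strand gene. Both sides of the pairs thus also lay about 1 log2 unit below the downstream side of single starts. Over 5 to 50 kb the pairs read −1.16 and −1.20 on the minus and plus sides, averaged over replicates, and single starts −0.27 upstream and −0.70 downstream. The nearest covered base was a median of 46.5 kb from a pair and 15.0 kb from a single start.

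CpG content moved with the ratios. The observed over expected CpG ratio in the 1 kb around the centre was at least 0.6 at 92.2% of pairs and at 58.1% of single starts. Pairs with a CpG ratio of 0.8 or more had a median log2 ratio of −1.76 ± 0.01, and the 18 pairs under 0.3 had −0.56 ± 0.06. In every CpG bin the pairs lay below single starts of the same bin, by 0.49 log2 units under 0.3, 0.75 from 0.3 to 0.6, and 0.88 in both upper bins. Of the 67 pairs under 0.6, 23.9% were covered, against 3.80% of the 790 pairs at or above it. These bins were chosen after the values were seen. The part of CpG content in the difference between pairs and single starts was otherwise not tested.

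**Figure D3:**
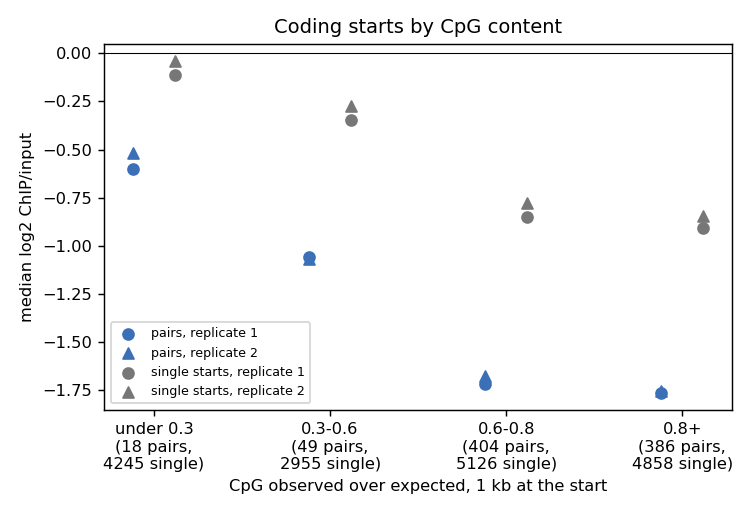
Median log2 ratio by bin of the observed over expected CpG ratio in the central 1 kb, for pairs and single starts, with 1 point per replicate. The pairs lie below the single starts in each bin, and both fall as the CpG ratio rises.

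The gap also appeared at matched gene density and GC content. Pairs with 0 or 1 other coding start within 100 kb had a median of −1.48 ± 0.02, and pairs with 11 or more had −2.02 ± 0.11. Within the 5 density bins the pairs lay below single starts by 0.81 to 1.14 log2 units. Within 5 bins of GC content over 10 kb they lay below by 0.97 to 1.37. On each of the 22 autosomes the pairs' median was below that of single starts in both replicates, from −1.30 on chromosome 15 (31 pairs) to −1.90 on chromosome 11 (71 pairs).

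The widest pairs had the highest median within the rule. Most pairs were close, with a median distance of 130 bases, a range of 1 to 995, and 80.9% within 300 bases. Medians were −1.72 for starts 1 to 99 bases apart, −1.63 for 100 to 199, −1.69 for 200 to 299, −1.70 for 300 to 599 and −1.47 for 600 to 1000. The covered share was 0.877% at 200 to 299 bases and 11.9% at 600 to 1000, and the low share ran from 62.7% at 600 to 1000 to 74.3% at 1 to 99. Just inside the limit, 16 pairs at 900 to 1000 bases had a median of −1.23, and just outside it, 6 pairs at 1001 to 1100 bases had −1.62. Head-to-head genes further apart read −1.48 for 1001 to 1500 bases (35 pairs), −0.45 for 1501 to 2000 (33 pairs), −0.88 for 2001 to 5000 (203 pairs), −0.66 for 5001 to 10000 (340 pairs) and −0.49 for 10001 to 20000 (730 pairs). All classes beyond 1500 bases lay above every class within the rule, in no steady order. The regions reach 5 kb beyond each start, so they grow with the distance and take in the DNA between the starts. The part of region length in this difference was not tested.

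Motif letters in the 300 bases centred on a pair were compared with those in the 300 bases upstream of all coding starts. These windows are not alike, since that of a close pair also holds bases inside its genes, which the upstream window leaves out. The ETS letters were present at 27.7% of pairs and 9.58% of all starts, the GC box at 70.9% and 50.6%, and CCAAT at 40.2% and 36.6%. The YY1 letters were at 6.05% and 1.60%, and the NRF1 letters at 3.84% and 1.16%. The TATA letters went the other way, at 4.89% and 12.2%. Pairs with the ETS letters read −1.90 and −1.85 in the 2 replicates, and pairs without them −1.60 and −1.56. For each other motif the medians with and without its letters lay closer together. Pairs with the TATA letters, for example, read −1.55 and −1.46, and pairs without them −1.71 and −1.67. Of the 46 covered pairs, 3 had the ETS letters. A match describes the letters only and is not a measured binding site.

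The 10 lowest pairs included genes of splicing, chromatin and mitochondria. LSM7/SPPL2B (chr19:2323610-2333614), which joins a protein of the U6 spliceosomal particle and an intramembrane protease, read −3.02 and −2.86, the lowest mean of all pairs. PDAP1/BUD31 (chr7:99001220-99011264), of which BUD31 is a splicing factor, read −2.86 and −2.93. RNF166/CTU2 (chr16:88767816-88777891), where CTU2 acts in thiolation of transfer RNA, read −2.85 and −2.87. All 3 pairs repeated more closely than the median pair.

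CBX5/HNRNPA1 (chr12:54668917-54678977) joins the gene of the heterochromatin protein HP1 alpha to that of an RNA-binding splicing regulator, and it read −3.20 and −2.47. SUGP1/MAU2, a splicing factor beside a cohesin loader, read −2.91 and −2.58. RHOF/SETD1B, of which SETD1B is a histone H3 lysine 4 methyltransferase, read −2.84 and −2.74. ALKBH1/SLIRP (chr14:78169366-78179414), a nucleic acid demethylase beside a mitochondrial RNA-binding protein, read −2.71 and −2.72. POLR1A/PTCD3, the largest subunit of RNA polymerase I beside a mitochondrial ribosomal protein, read −2.66 and −2.76.

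The other members of the lowest 10 had wider spreads. KIN/ATP5F1C, with a subunit of the mitochondrial ATP synthase, read −2.14 and −3.49. TADA3/ARPC4-TTLL3, with a subunit of histone acetyltransferase complexes and a read-through model of an actin-nucleating complex gene, read −2.20 and −3.28. All of the lowest 10 were nevertheless at −2 or below in both replicates.

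The 10 highest pairs included genes known from muscle, neurons and germ cells. RASL12/KBTBD13 (chr15:65364028-65374084), of which KBTBD13 is a muscle protein, read 1.78 and 1.69, the highest mean of all pairs. SNCB/EIF4E1B (chr5:176052557-176062619), beta-synuclein of neurons beside an oocyte form of a translation initiation factor, read 1.24 in both replicates. KCTD19/LRRC36 (chr16:67355663-67365701), of which KCTD19 acts in meiosis, read 1.05 and 1.29. Each of these regions was covered throughout.

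HES2/ESPN (chr1:6479730-6489836), a transcriptional repressor beside an actin-bundling protein of sensory hair cells, read 0.91 and 1.12. PLCZ1/CAPZA3 (chr12:18886034-18896053), both genes of sperm, read 1.12 and 0.86. FUT1/FGF21 (chr19:49253647-49263781), a fucosyltransferase of blood group antigens beside a hormone made in liver, read 0.79 and 1.01. These 3 regions were also covered throughout.

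Most other pairs of the highest 10 joined a specialised gene to a widely used one. NFE2/COPZ1 (chr12:54689799-54699986), a transcription factor of blood cells beside a coatomer subunit, read 1.05 and 1.20 and was covered over 91.7% of its bases. HPCAL4/PPIE, a neuronal calcium sensor beside a spliceosomal cyclophilin, read 0.92 and 1.06. RPP25/SCAMP5, a ribonuclease P subunit beside a membrane protein of neuronal secretory vesicles, read 0.84 and 0.97. IGSF11/TEX55 read 1.18 and 0.85 but was covered over only 45.9% of its bases, so it was among the highest 10 without being called covered.

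Which start the annotation gives matters for the covered pairs. The rule used the outermost start of each gene, and in 535 of the 857 pairs (62.4%) the starts of the 2 canonical transcripts also lay within 1 kb. That held for 415 of the 595 low pairs (69.7%) but for 14 of the 46 covered pairs (30.4%). The 535 pairs had a median of −1.85 ± 0.01, with 14 covered (2.62%), and the other 322 had −1.30 ± 0.08, with 32 covered (9.94%). The covered pairs whose canonical starts also met the rule included SNCB/EIF4E1B, KCTD19/LRRC36, PLCZ1/CAPZA3, FOXL2/FOXL2NB, TRPM5/KCNQ1, DUOX2/DUOXA2, SMC1B/RIBC2 and COL4A4/COL4A3. RASL12/KBTBD13, HES2/ESPN, NFE2/COPZ1, HPCAL4/PPIE, RPP25/SCAMP5 and FUT1/FGF21 did not meet it. Nor did IGSF11/TEX55, which was not called covered. This comparison was chosen after the values were seen.

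Of 19 pairs known from textbooks as bidirectional, 10 met the rule, and 1 of these was covered. COL4A4/COL4A3 (chr2:228024169-228034340), the collagen IV chains of the kidney filter, read 0.34 and 0.17 and was covered throughout. Both of its sides, 5 to 50 kb out, lay in the same segments, with the same 0.34 and 0.17. TK1/AFMID, with the thymidine kinase of dividing cells, averaged −0.96 ± 0.06 and was the next highest.

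The other 8 textbook pairs were lower, all near −1.70 or below in both replicates. NPAT/ATM, a histone gene activator beside a kinase of the DNA damage response, read −1.70 and −1.99. PPAT/PAICS, which encode enzymes of purine synthesis, read −1.86 and −2.17. SARS2/MRPS12, a mitochondrial seryl-tRNA synthetase beside a mitochondrial ribosomal protein, read −2.07 and −1.75.

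PRKDC/MCM4, the catalytic subunit of the DNA-dependent kinase beside a subunit of the replicative helicase, read −2.45 and −2.14. OSGEP/APEX1, with the main abasic site endonuclease, read −2.76 and −2.22. POLR2L/TSPAN4, with a subunit shared by the nuclear RNA polymerases, read −2.31 and −2.33. PDCD10/SERPINI1 read −1.97 and −2.72.

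Pairs were next grouped by patterns in their gene symbols, a pair belonging to a group when either gene matched. Membership thus follows symbols, and a group can hold genes of other functions or miss genes that fit its name. Ribosomal protein genes were the lowest group, with a median of −2.16 ± 0.15 over 11 pairs, all of them low. The highest of these was RPL12/LRSAM1, at −1.76 and −1.48, and the lowest was MED22/RPL7A, at −2.27 and −2.47, with VPS52/RPS18 close to it at −2.32 and −2.40. Single starts with a ribosomal protein gene had medians of −1.69 and −1.42, and 1 of 66 was covered. The 4 pairs with a tRNA synthetase gene had a median of −2.03 ± 0.13 and were all low, LYRM4/FARS2 being the highest at −2.17 and −1.49. For single starts with a tRNA synthetase gene the medians were −1.56 and −1.76, with 1 of 35 covered. Low single starts were not counted by group.

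Mitochondrial protein genes formed 58 measured pairs with a median of −1.96 ± 0.06. Of these, 48 were low and none was covered. TUFM/SH2B1, with the mitochondrial elongation factor Tu, read −2.54 and −2.66. The highest were ATP5MJ/TDRD9, at −0.23 and −0.18, where TDRD9 is a germ-cell helicase, and SLC25A12/METAP1D, at −0.29 and −0.48. Single starts of the same group were covered in 9 of 251 cases.

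DNA repair genes formed 40 measured pairs with a median of −1.89 ± 0.04, of which 34 were low and 1 was covered. XAB2/PET100, with a protein of transcription-coupled repair and splicing, read −2.90 and −2.36. The covered pair was TP53BP1/MAP1A, which joins a mediator of double-strand break repair to a microtubule protein of neurons, at 0.08 and 0.58. Its replicates spread widely and 70.8% of its bases were covered. TP53BP1/MAP1A did not meet the rule with canonical starts. RAD51C, a recombination gene, was in the next highest pairs, with IGBP1C/RAD51C at −0.43 and 0.30.

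Replication and cell cycle genes formed 35 pairs with a median of −1.60 ± 0.09, of which 24 were low. Of the group's 182 single starts, 12 were covered. LMF2/NCAPH2, with a condensin subunit, read −2.91 and −2.28, and ANAPC2/SSNA1, with a subunit of the anaphase-promoting complex, read −2.54 and −2.35. The 2 covered pairs were SMC1B/RIBC2, with the cohesin subunit of meiosis, at 0.70 and 0.68, and LIPT2/POLD3, with a subunit of DNA polymerase delta, at 0.29 and 0.34. Of these 2, only SMC1B/RIBC2 also met the rule with canonical starts.

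Nucleotide and amino acid metabolism genes formed 11 pairs with a median of −1.81 ± 0.07, of which 8 were low and none was covered. Single starts of this group were covered in 11 of 76 cases. ZNF697/PHGDH, with the first enzyme of serine synthesis, read −0.60 in both replicates. CFAP90/MTRR, with the reductase that reactivates methionine synthase, was the highest of the group at −0.04 and −0.71. Zinc finger genes formed 32 pairs with a median of −1.53 ± 0.18, of which 21 were low and none was covered. Among the 555 single starts with a zinc finger gene, 25 (4.50%) were covered. ZNF668/ZNF646, where both genes encode zinc finger proteins, read −2.66 and −2.75, and the highest, ZNF214/NLRP14, read −0.52 and 0.36.

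Proteasome and antigen processing genes formed 6 pairs whose group median, −1.86 ± 0.94, differed widely between replicates. Among the group's 70 single starts, with medians of −1.17 and −1.01, 7 were covered. PSMB1/TBP, a proteasome subunit beside the TATA-binding protein, read −2.90 and −2.47. PSMA7/SS18L1 read −2.68 and −2.49. The highest of the group was PSMA1/PDE3B, a proteasome subunit beside a phosphodiesterase, at 0.48 and −0.20. PATL2/B2M, with the light chain of class I antigen-presenting molecules, read −1.64 and −0.23. In PATL2/B2M and PSMA2/MRPL32 the replicates stood more than 1 log2 unit apart.

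The clustered histone genes were an intermediate group. Their 12 pairs had a median of −0.72 ± 0.23, all were below 0 in both replicates, 2 were low and none was covered. Among the 37 single starts of the group 0 were covered too. H3C12/H2BC17 and H2AC17/H2BC17, of the cluster on chromosome 6, both read −0.19 and −0.56 and share their segments. H2BC4/H2AC6 read −1.68 and −1.43, and H2AC25/H2BC26 on chromosome 1 read −1.23 and −1.47. Since neighbouring histone pairs lie in the same segments, these 12 pairs are fewer than 12 separate measurements.

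Developmental transcription factor genes were the highest group, and the only one of the 12 groups with a median above 0 (0.58 ± 0.03). Of their 8 pairs, 5 were covered, and 43.6% of the 289 single starts of the same group were covered too. Of the 5 covered pairs, only FOXL2/FOXL2NB also met the rule with canonical starts. The covered pairs were HES2/ESPN, SOX18/TCEA2 at 0.84 and 0.92, LMF1/SOX8 at 0.66 and 0.97, FOXL2/FOXL2NB at 0.75 and 0.78, and SOX30/C5orf52 at 0.44 and 0.42. SOX18 is a factor of blood vessels and FOXL2 of the ovary. FOXM1/TULP3, with a factor of the cell division cycle, read −1.35 and −1.96, and SYMPK/FOXA3, with a liver factor, read −1.18 and −1.09. The SYMPK/FOXA3 value averages unlike segments, and 49.5% of the region was covered, just under the limit. The body of FOXA3 was covered over 100%, at 0.36 and 0.64, and that of SYMPK over 0%, at −2.83 and −2.80.

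Tissue-restricted genes formed 28 pairs with a median of −0.80 ± 0.10, of which 5 (17.9%) were covered and 10 low, beside 30.3% covered of the group's 1421 single starts. Of the 5, TRPM5/KCNQ1 and CHDH/IL17RB also met the rule with canonical starts. The covered pairs were GABRA4/GABRB1, subunits of the neuronal GABA receptor, at 1.02 and 0.61, TRPM5/KCNQ1, both ion channels, at 0.60 and 0.87, CHDH/IL17RB at 0.60 and 0.55, KCNG3/MTA3 at 0.59 and 0.52, and CLDN1/CLDN16, both tight junction proteins, at 0.48 and 0.52. PAN2/IL23A, a deadenylase subunit beside a cytokine subunit, read −2.27 and −1.80. In the group of basement membrane collagens and matrix, 45 of 128 single starts were covered. COL4A4/COL4A3 was the only covered pair of the group's 6, whose median was −1.74 ± 0.18. CHCHD10/MMP11, with a matrix metalloproteinase, was next at −0.24 and 0.17, and P3H1/C1orf50, with a prolyl hydroxylase of collagen, read −1.93 and −2.20.

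**Figure D4:**
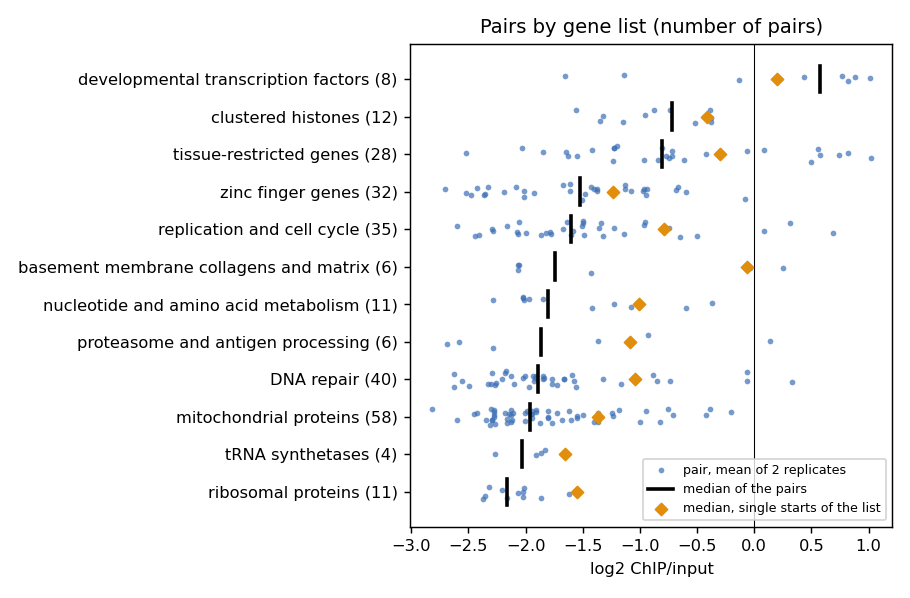
Mean log2 ratio of both replicates for each pair (points) in the 12 gene groups, with a bar at each group's mean of the 2 replicates' medians and a diamond at the same value for single starts of the group. Ribosomal protein pairs lie lowest, around −2.16, and developmental transcription factor pairs highest, around 0.58.

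Most pairs, 622, belonged to no group, and their median of −1.68 ± 0.03 equalled that of all pairs, with 32 covered (5.14%) and 434 low. In 11 of the 12 groups the pairs' median lay below that of the group's single starts, and the developmental transcription factors were the exception.

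The sides of some pairs differed strongly, a smaller share than at single starts. The sides were the stretches 5 to 50 kb outward of each start, measured at 852 pairs. In 583 pairs (68.4%) both sides were below 0 in both replicates. A pair was called split where its sides had opposite signs and differed by at least 1, the same way in both replicates. That held for 122 pairs (14.3%), against 24.6% of single starts, with the higher side on the minus-strand gene in 59 and on the plus-strand gene in 63. The region between the sides was low in 69 of the split pairs and covered in 9. Counting also pairs whose 5′ ends overlap by up to 1 kb gave 209 split pairs, and asking for a difference of at least 2 gave 53. Across pairs the sides correlated weakly (Pearson's r 0.14 and 0.17 in the 2 replicates, n = 852, some pairs sharing segments).

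BFSP1/DSTN (chr20:17544865-17555720) joins a lens filament protein to an actin-severing protein, and its BFSP1 side read 1.06 and 1.16 and its DSTN side −2.31 and −2.52. MED23/ENPP3 (chr6:131944382-131954582) read −2.17 and −2.21 on the side of MED23, a Mediator subunit, and 0.78 and 0.73 on the side of ENPP3, an ectoenzyme. In the first the plus-strand gene and in the second the minus-strand gene lay on the low side. BET1L/RIC8A read 1.48 and 1.15 on the BET1L side and −2.23 and −2.04 on the RIC8A side. TEX46/KDM1A read 0.92 and 1.12 on the TEX46 side and −1.96 and −2.08 on the side of KDM1A, a histone lysine demethylase. GMFG/SAMD4B read 0.48 and 0.68 against −2.48 and −2.33. These 5 pairs had the largest differences between sides among the pairs whose sides differed the same way in both replicates. Of these 5, only BET1L/RIC8A also met the rule with canonical starts, as did 60 of the 122 split pairs (49.2%).

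**Figure D5:**
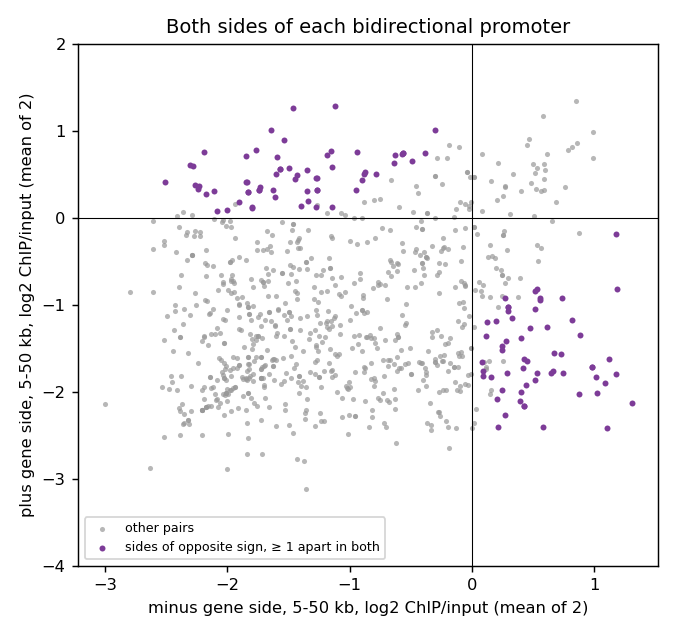
Mean log2 ratio of both replicates over 5 to 50 kb outward on the side of the minus-strand gene (horizontal axis) and of the plus-strand gene (vertical axis), with 1 point per pair. Split pairs, 122 in all, occupy the upper left and lower right, and most other pairs lie where both sides are below 0.

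Whole gene bodies differed within some pairs too. In 853 pairs both bodies were measured. In 498 of them (58.4%) neither body had a base covered in either replicate, and in 28 both bodies were covered over at least 50%. In 57 pairs 1 body was covered over at least 50% in both replicates while the other had no base covered in either. The canonical starts of 25 of these 57 pairs also met the rule, the next 3 pairs among them. In DNAI7/ETFRF1, the axonemal dynein gene was covered over 96.6% and its mitochondrial partner over 0%. In NDUFA8/MORN5, the respiratory complex I gene was covered over 0% and MORN5 over 96.4%. In EXD1/CHP1 the values were 99.2% and 0%. In these 3 pairs coverage was nearly complete over 1 gene and 0 over the other. Body counts were made for pairs only, so whether such contrasts are particular to pairs was not tested.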

How the data were processed

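Chromatin of IMR90 fibroblasts was precipitated with an antibody against macroH2A1 and sequenced in 2 replicates, each with an input. The submitters' processing notes name CASAVA 1.7 and build hg19. The sources used here do not give the aligner, the segmentation program or how ChIP was scaled to input. Each ChIP replicate has its own deposited segmentation. In it the authors give every segment the log ratio of ChIP over input and a second value, used here as a −log10 p-value. The base 2 of the logarithm and the meaning of the second value were inferred from the values and their layout. No header states them. Read depth is unknown, so no counting interval was made.

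The value of a region was the mean deposited log2 ratio weighted by bases within the blocks of segments, with at least 50% of bases assayed in both replicates. Genes came from GENCODE release 44 mapped to GRCh37, the same build, and the start of a gene was its outermost annotated end. Motif letters and CpG ratios were read from that genome. Scripts used Python 3.11.15, numpy 2.4.6, pandas 2.3.3 and matplotlib 3.10.9 and were tested on simulated data. Because there is 1 group of 2 samples, values were described and no test was made.

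The rule for named pairs took textbook pairs, the 10 highest and 10 lowest, the highest and lowest 2 of each gene group, and the 5 with the largest differences between sides or between replicates, and not every pair it took is described. Covered pairs of a group and pairs with 1 covered body were named in addition, after their values were seen. The values of 1 textbook pair are not reported here. The members, gene groups and rules were chosen with earlier results of these data known. Alternatives changed the region, distance, thresholds, gene set, matching and replicates, and canonical starts, CpG bins and the downstream comparison were added after the values were seen.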

Additional observations from a re-analysis of the deposited data

How the results depend on the processing

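Of 69 alternative values, those that are medians or differences all kept their sign. The others are shares or counts, which have no sign to change. Counts and shares are listed where they moved by over 1.5 times, and medians and differences where they moved by more than the SD of the 2 replicates (0.03 for the median, 0.01 for the difference from single starts, 0.03 for that from flanks), which left 24. The low share ranged up to 78.2% with canonical starts. The median log2 ratio over pairs (−1.68) became −1.64 without read-through models and genes without symbols, −1.84 with 1 kb around the starts, −1.42 with 20 kb and −1.86 with canonical starts. The share of covered pairs (5.37%) became 14.4% when any covered base counted and 2.64% with canonical starts. The share of low pairs (69.4%) became 21.5% with a limit of −2. The difference between pairs and single starts (−1.10) became −1.13 with pairs whose 5′ ends overlap added, −1.13 with 1 kb around the starts, −1.08 with merged regions, −1.07 without read-through models, −0.88 with 20 kb, −0.72 against single starts with another start 1 to 10 kb away, −1.04 within density bins, −1.05 within GC bins, −0.82 within CpG bins, −0.91 against the downstream side only and −1.25 with canonical starts. The difference between region and flanks (−0.81) became −0.85 with starts within 300 bases, −0.84 with at least 90% of bases assayed, −0.48 with flanks at 20 to 50 kb and −0.98 with canonical starts. Split pairs (122) became 209 with overlapping 5′ ends added and 53 with a difference of at least 2.

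With either replicate alone, the median was −1.70 to −1.66, the covered share 6.65% to 7.23%, the low share 74.1% to 75.8%, the difference from single starts −1.10 to −1.09, the difference from flanks −0.83 to −0.79, and the split pairs 147 to 162. No paired analysis was possible because the inputs, which share replicate numbers with the ChIP samples, enter only through the authors' ratio and no test was made. Depth is unknown, and long segments hide changes shorter than a segment.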
